A study of Homo sapiens with 16 samples.

Results

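The 59 genes described here encode the machinery that copies DNA and the machinery that divides the cell, together with the transcription factors, cyclins and kinases that time both. They were chosen by gene symbol, and all 59 were among the 39007 symbols of the expression table and among the 13249 genes with a mean above 1 CPM, a unit in which counts are scaled to the total of the library. By role they comprised 10 genes of origin licensing, 6 of helicase activation, 6 of the polymerases and primase, 7 of the sliding clamp and Okazaki fragment processing, 7 transcription factors, 8 cyclins, cyclin-dependent kinases and CDC25 phosphatases, 7 mitotic kinases and checkpoint genes, 6 spindle and kinetochore genes and the 2 markers MKI67 and TOP2A.

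The measurements come from RNA-sequencing of T24, an established human bladder cancer cell line, and of GRC1, a line derived from it by repeated rounds of exposure to gemcitabine, a nucleoside analog that blocks DNA synthesis. A phase is 1 round of drug exposure and regrowth, and 4 libraries were made from each of parental phase P0 (T24 before selection), early phase P3, P7 (the intermediate phase) and late phase P15. Every sample title carries the letters NT, which the labels do not spell out. Whether drug was present at harvest is not stated in the sources used here. GRC1 is 1 of several lines selected in parallel and the only one sequenced here, so the phases are successive states of 1 lineage. Nothing in the labels says that the 4 libraries of a phase came from separate cultures, so p-values measure the spread between these libraries, which may be technical.

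Before S phase, origin recognition proteins, CDC6 and CDT1 load the ring-shaped MCM2 to MCM7 complex onto replication origins. CDC45 and the GINS proteins turn the ring into an active helicase at the start of S phase, and polymerases, the PCNA clamp and flap-processing enzymes then copy both strands. E2F factors switch on most of these genes in late G1, whereas FOXM1 and MYBL2 act on the genes of G2 and mitosis, and in tumours the level of both sets is widely read as a measure of proliferation.

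The steps between low values gave an estimated depth of 33.8 to 50 M counts per library. Of 16 urothelial and epithelial markers, 8 were above 1 CPM at P0, among them the keratins KRT7 and KRT8, while KRT5 and KRT20 were listed at 0. Their summed level was 2207 to 2279 CPM at P0 and 697 to 776 CPM at P15, where KRT19 was close to 0. Of the 8 with a mean above 1 CPM over all libraries, 7 were lower by 2-fold or more at P15 than at P0. Over all genes with such a mean the share was 11.5%. KRT18 went the other way and rose by 0.425 on the log2 scale. Of 12 markers of immune, endothelial, stromal and muscle cells, 2 were above 1 CPM at P0 (CD14 and COL1A1), and PTPRC was listed at 0 there. Their summed level was 12.5 to 15.3 CPM at P0 and 24.9 to 28.3 CPM at P15, where COL1A1 rose by 2.05 and CD14 fell by 2.88 on the log2 scale, and the part of these markers in the changes at P15 was not tested. The mitochondrial share of CPM was 0.94 to 1.80% at P0, with replicate 2 the highest, 1.36 to 1.59% at P3, 1.63 to 1.92% at P7 and 1.13 to 1.32% at P15. The number that follows the letter S in the sample titles recurs between phases, the labels name no batch, and any batch that goes with a phase cannot be told apart from it.

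Late phase P15 differed most from parental phase P0 in the genes of DNA replication. Of the 59 genes, 35 were lower and 18 were higher at P15 at an adjusted p-value below 0.05 in limma with Benjamini-Hochberg adjustment, against 40.9% of all tested genes lower and 45.3% higher. A fall of 2-fold or more was seen for 12 of the 59 and a rise of that size for 0, against 11.5% and 12.2% of all tested genes. The median log2 fold change was -0.30 over the 59 genes and 0.04 over all tested genes. The 12 were FEN1, PCNA, MCM4, CDC6, GINS1, E2F1, MCM2, MCM3, MCM5, POLA2, CDC25A and MKI67, and 9 of them belong to the 29 genes of the replication machinery. Of those 29 genes, 20 were lower and 8 were higher, whereas the 13 genes of the mitotic apparatus held 7 that were lower and 5 that were higher, with 0 changed by 2-fold. In cultures of mixed cell cycle stages, fewer cells in S phase and less RNA per cell cannot be told apart.

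**Figure D1:**
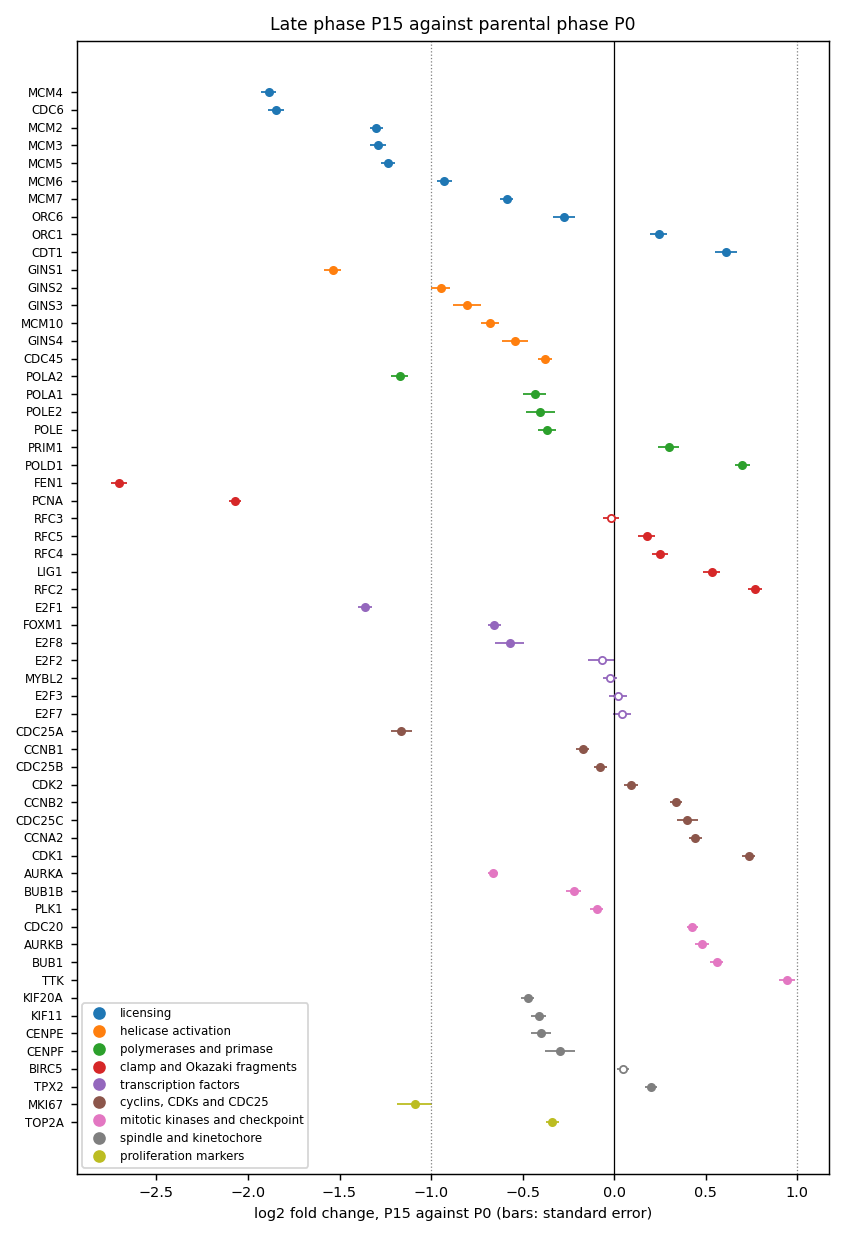
Log2 fold change of each of the 59 genes in late phase P15 against parental phase P0 (x axis), grouped and coloured by role, with bars of 1 standard error from limma. Filled points passed an adjusted p-value of 0.05, open points did not, and dotted lines mark 2-fold. FEN1 at -2.71 and PCNA at -2.07 lie farthest to the left, and TTK at 0.94 farthest to the right.

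The licensing genes fell together except for CDT1 and ORC1. CDC6, the ATPase that recruits the MCM ring, had log2(CPM + 1) values of 7.03, 6.85, 7.04 and 7.04 in the 4 libraries of P0 and of 5.07, 5.10, 5.19 and 5.22 in those of P15. This was a difference of -1.84 ± 0.04 (standard error), a 3.59-fold fall (adjusted p = 6.19e-22 in limma). The lowest P0 library thus lay well above the highest P15 library.

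Of the 6 ring subunits, MCM4 fell most, from 8.61, 8.41, 8.61 and 8.55 at P0 to 6.67, 6.56, 6.77 and 6.63 at P15 (-1.89 ± 0.04, adjusted p = 1.42e-22 in limma). MCM2 went from 7.72 ± 0.07 (SD, n = 4) to 6.42 ± 0.04, MCM3 from 7.80 ± 0.10 to 6.51 ± 0.08 and MCM5 from 7.48 ± 0.08 to 6.24 ± 0.06. MCM6 and MCM7 fell by less than 2-fold, by 0.93 and 0.59 on the log2 scale. The subunits of this one complex therefore differed in size of change, with MCM7 changed 1.50-fold and MCM4 3.70-fold. P0 and P15 libraries did not overlap for any of the 6. How many of all tested genes lacked such overlap was not computed, and 40.9% of them were called lower and 45.3% higher. CDT1, the loading factor that partners CDC6, moved the other way. Its values were 5.67, 5.78, 5.71 and 5.68 at P0 and 6.18, 6.45, 6.32 and 6.34 at P15 (0.61 ± 0.06, adjusted p = 8.04e-10 in limma), so that every P15 library exceeded every P0 library. Of the origin recognition subunits, ORC1 rose by 0.24 and ORC6 fell by 0.27. Summed over the 10 licensing genes, the level was 1654 ± 86 CPM at P0 (SD, n = 4), 1532 ± 14 at P3, 1397 ± 7 at P7 and 798 ± 29 at P15.

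The 6 genes of helicase activation were all lower at P15, against 40.9% of all tested genes. GINS1, a subunit of the tetrameric GINS complex, had values of 6.10, 6.18, 6.23 and 6.22 at P0 and of 4.59, 4.55, 4.72 and 4.72 at P15 (-1.54 ± 0.04, adjusted p = 4.29e-20 in limma). GINS2 and GINS3 fell by 0.95 and 0.80 and GINS4 by 0.54, so the GINS subunits too changed by unequal amounts. MCM10, which assists CDC45 loading, fell by 0.68. CDC45, which completes the active helicase, fell least of the 6, from 6.13 ± 0.05 to 5.76 ± 0.05 (SD, n = 4). GINS1 is overlapped on the opposite strand by NINL, which rose by 1.42 at P15, and whether counting used strand is not stated in the sources used here.

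The polymerase subunits went in both directions. POLA2, the regulatory subunit of the primase-bound polymerase that starts each fragment, had values of 6.51, 6.38, 6.56 and 6.50 at P0 and of 5.19, 5.34, 5.39 and 5.34 at P15 (-1.17 ± 0.05, adjusted p = 2.34e-17 in limma). Its catalytic partner POLA1 fell by 0.43, whereas PRIM1, the catalytic primase subunit of the same assembly, rose by 0.30. The genes of the leading strand polymerase, POLE and POLE2, fell by 0.37 and 0.40. POLD1, the catalytic subunit of the lagging strand polymerase, rose, with values of 5.93, 5.93, 5.94 and 5.99 at P0 and of 6.58, 6.65, 6.71 and 6.65 at P15 (0.70 ± 0.04, adjusted p = 5.06e-14 in limma). P0 and P15 libraries were fully separated for each of these 6 genes. The share of all tested genes so separated was not computed, and 40.9% of all tested genes were called lower and 45.3% higher.

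The widest split within a role was that of the clamp and Okazaki fragment genes. FEN1, the flap endonuclease that trims displaced primers, had the largest fall of the 59 genes. Its values were 7.70, 7.52, 7.72 and 7.72 at P0, 7.54 ± 0.03 at P3, 7.52 ± 0.01 at P7 (SD, n = 4) and 5.08, 4.84, 5.00 and 4.92 at P15. The difference of P15 from P0 was -2.71 ± 0.04 (adjusted p = 5e-25 in limma), a 6.52-fold fall. P0, P3 and P7 libraries lay within 7.50 to 7.72, so nearly all of the fall came between P7 and P15. FADS2, which overlaps FEN1 on the same strand, rose by 1.10 at P15.

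PCNA, the ring that tethers polymerases to DNA, had values of 8.57, 8.60, 8.65 and 8.56 at P0 and of 6.53, 6.46, 6.59 and 6.51 at P15 (-2.07 ± 0.03, adjusted p = 9.8e-26 in limma). It was already lower at P3, at 8.08 ± 0.02, and at P7, at 8.02 ± 0.04, while FEN1 had log2 fold changes from P0 of -0.13 and -0.14 at these phases (adjusted p = 0.0171 and 0.00842 in limma). Of the RFC subunits measured, which load this ring, none was called lower. RFC2 rose, with libraries of 5.85 to 6.03 at P0 and of 6.68 to 6.78 at P15 (0.77 ± 0.04, adjusted p = 2.12e-15 in limma). RFC4 and RFC5 rose by 0.25 and 0.18, and the RFC3 difference of -0.02 did not pass the test (adjusted p = 0.702 in limma). LIG1, the ligase that seals the fragments that FEN1 has trimmed, rose by 0.53, with libraries of 5.84 to 5.94 at P0 and of 6.36 to 6.60 at P15.

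**Figure D2:**
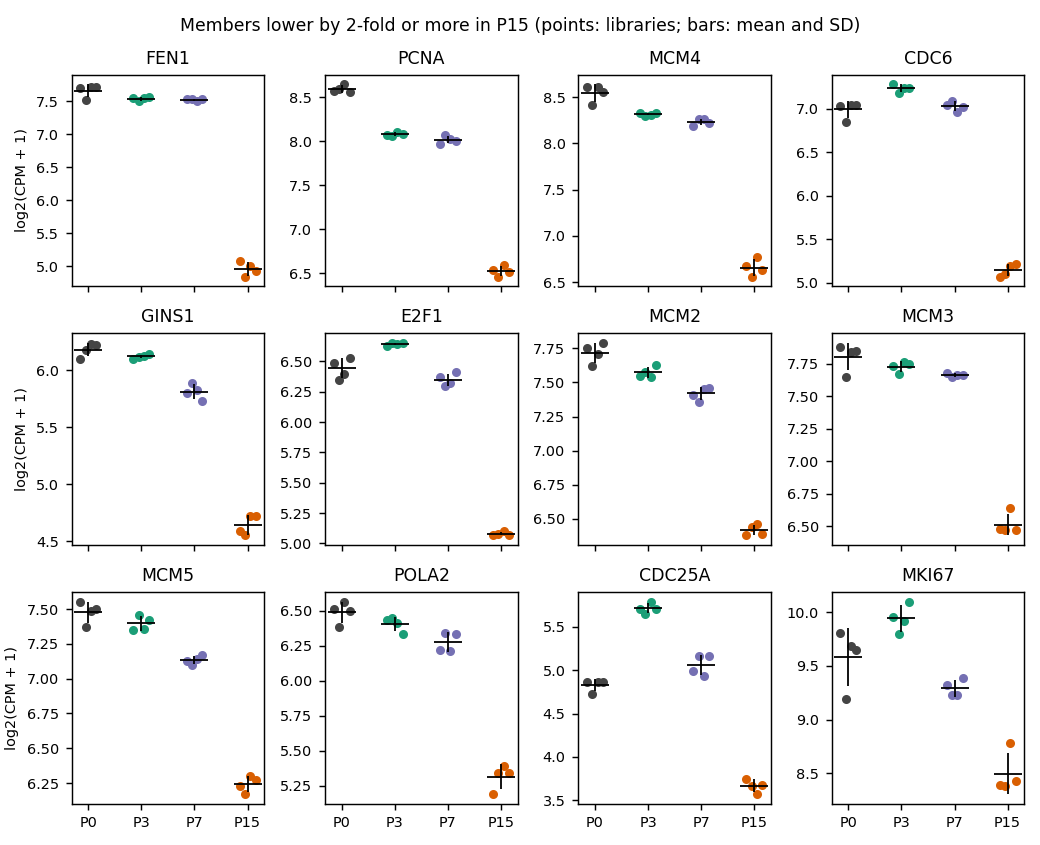
Log2(CPM + 1) in each library (points, 4 per phase) for the 12 genes that were lower by 2-fold or more in P15 than in P0, with the mean (horizontal bar) and SD (vertical bar) of each phase. Each panel has its own y range, which does not start at 0. In every panel the 4 libraries of P15 lie below those of the other phases. PCNA stepped down at P3 and again at P15, while FEN1 stayed between 7.50 and 7.72 until P7.

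Transcription factors of the G1/S transition were not lowered as a group. E2F1, an activator of replication genes, had values of 6.49, 6.35, 6.40 and 6.53 at P0 and of 5.07, 5.08, 5.10 and 5.07 at P15 (-1.36 ± 0.04, adjusted p = 1.69e-20 in limma). The related activators E2F2 and E2F3 differed by -0.07 and 0.02 and did not pass the test (adjusted p = 0.389 and 0.666 in limma). Of the repressors, E2F8 fell by 0.57 while E2F7 differed by 0.04. FOXM1, a driver of mitotic genes, fell from 7.75 ± 0.05 to 7.09 ± 0.07 (SD, n = 4), and MYBL2, its partner in that task, was 7.14 ± 0.03 and 7.12 ± 0.07. E2F1 and FOXM1 thus had P15 libraries wholly below those of P0, and the libraries of MYBL2, E2F2, E2F3 and E2F7 overlapped.

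Of the 8 cyclins, cyclin-dependent kinases and CDC25 phosphatases, 5 rose (62.5%) and 3 fell (37.5%) at P15. Over all tested genes the shares were 45.3% and 40.9%. CDK1, the kinase of mitotic entry, had values of 7.02, 7.04, 7.04 and 7.03 at P0 and of 7.81, 7.77, 7.74 and 7.75 at P15 (0.73 ± 0.04, adjusted p = 1.04e-15 in limma). Its cyclins were split. CCNA2 rose by 0.44 and CCNB2 by 0.34, while CCNB1 fell by 0.17. The CDC25 phosphatases, which remove the inhibitory phosphates from these kinases, also split. CDC25A, which acts at the start of S phase, went from 4.86, 4.73, 4.86 and 4.86 at P0 to 3.75, 3.66, 3.57 and 3.68 at P15 (-1.16 ± 0.06, adjusted p = 1.46e-15 in limma). CDC25C, which acts at mitotic entry, rose by 0.40, and CDC25B, which also acts in G2, fell by 0.07 with overlapping libraries. CDK2, the S phase kinase, differed by 0.09, and its P0 and P15 libraries overlapped although the test was passed (adjusted p = 0.0344 in limma).

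Of the 7 mitotic kinases and checkpoint genes, 4 rose (57.1%) and 3 fell (42.9%) at P15, against 45.3% and 40.9% of all tested genes. TTK, the kinase that starts checkpoint signalling at unattached kinetochores, had the largest rise of the 59 genes, with values of 5.81, 5.87, 5.94 and 5.84 at P0 and of 6.79, 6.73, 6.83 and 6.89 at P15 (0.94 ± 0.04, adjusted p = 5.39e-16 in limma). BUB1, a checkpoint kinase, rose by 0.56, AURKB, the kinase that corrects kinetochore attachment, by 0.48 and CDC20, the activator of the anaphase-promoting complex, by 0.43. In contrast, AURKA, the centrosome and spindle pole kinase, had values of 7.70, 7.67, 7.76 and 7.73 at P0 and of 7.05, 7.02, 7.09 and 7.05 at P15 (-0.66 ± 0.03, adjusted p = 1.1e-16 in limma). BUB1B, a subunit of the inhibitory checkpoint complex, fell by 0.22. PLK1, which acts throughout mitosis, fell by 0.10, with overlapping libraries of 7.10 to 7.24 at P0 and 7.04 to 7.16 at P15. The Aurora kinases therefore moved apart, with AURKA libraries wholly lower and AURKB libraries wholly higher at P15.

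Of the 6 spindle and kinetochore genes, 4 fell and 1 rose at P15, against 40.9% and 45.3% of all tested genes. None changed by 2-fold, against 11.5% of all tested genes lower and 12.2% higher. The kinesins KIF20A of the midzone and KIF11 of the bipolar spindle fell by 0.47 and 0.41, and the kinetochore proteins CENPE and CENPF by 0.40 and 0.30. CENPF libraries overlapped between P0 (7.75 to 8.30) and P15 (7.69 to 8.01). TPX2, the activator of AURKA on the spindle, rose by 0.20, and BIRC5, the survivin subunit of the AURKB complex, differed by 0.05 (adjusted p = 0.201 in limma).

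The 2 proliferation markers were both lower at P15. MKI67, which encodes the Ki-67 antigen, had values of 9.81, 9.19, 9.69 and 9.65 at P0 and of 8.39, 8.38, 8.78 and 8.43 at P15 (-1.09 ± 0.10, adjusted p = 1.4e-10 in limma). It had the widest spread between P0 libraries of the 2, with P0 replicate 2 the lowest. TOP2A, the topoisomerase that untangles sister chromatids, went from 9.18 ± 0.07 to 8.85 ± 0.04 (SD, n = 4). The paper reports higher viability and more colonies for GRC1 than for P0 cells, and more anchorage-independent growth. It also reports larger tumours and stronger Ki67 protein staining in GRC1 xenografts. The values here are RNA levels, and growth was not measured in these libraries. The 59 genes together took 7797 to 8616 CPM per library at P0 and 6229 to 6736 CPM at P15.

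**Figure D3:**
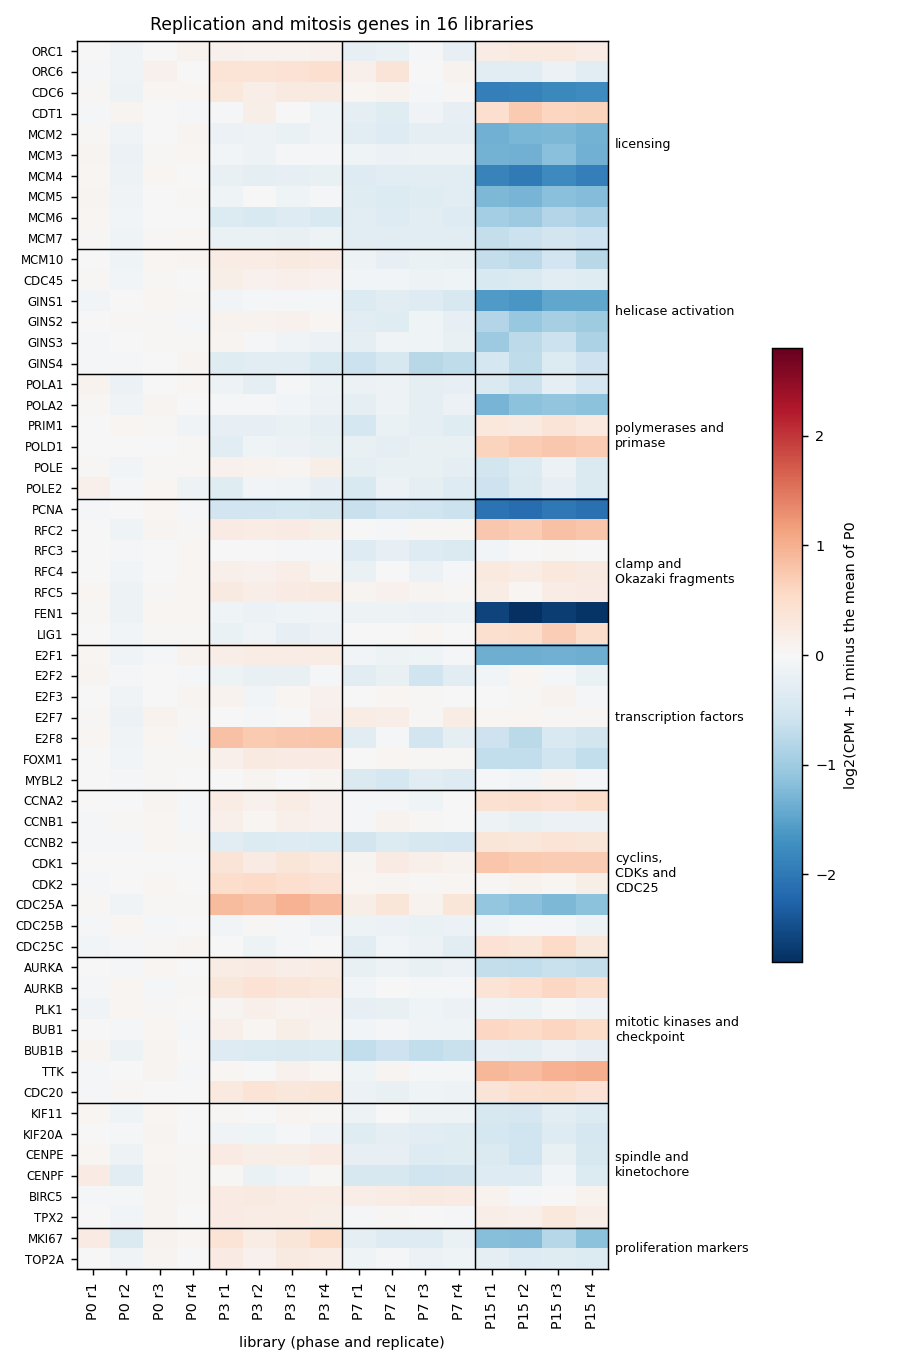
Log2(CPM + 1) of the 59 genes (rows, grouped by role) in the 16 libraries (columns), each minus the mean of the gene in parental phase P0; red is higher and blue lower. Most licensing and helicase rows, PCNA and FEN1 turn blue in the 4 P15 columns, with FEN1 darkest, while CDT1, POLD1, RFC2, CDK1 and TTK turn red. The P3 columns are red for E2F8 and CDC25A.

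Promoter letters known from cell cycle genes were then read for the same genes, because replication and mitotic genes are switched on through different elements. RefSeq windows on GRCh38.p14, from 250 bases before to 50 bases after each annotated start, matched 49 of the 59 genes in 64 windows. FOXM1, TPX2, BIRC5, E2F8, GINS4, AURKA, MCM4, TTK, CDK2 and MCM5 had no entry. The E2F letters searched were TTTCCCGC, TTTGGCGC, TTTCGCGC and TTTGCCGC, and the letters of the cell cycle homology region (CHR), an element of G2 and mitotic genes, were TTTGAA and TTTAAA, both strands counted. E2F letters stood in 3.31% of all 35116 windows and in 34.4% of the windows of these genes, CHR letters in 24% and 28.1%, and the letters CCAAT in 34.6% and 65.6%. E2F letters were found in 16 of 32 windows of the replication machinery and 0 of 10 of the mitotic apparatus, and CHR letters in 1 of 32 and 7 of 10. Split by the outcome at P15, E2F letters stood in 8 of 11 windows (72.7%) of genes lower by 2-fold or more, in 7 of 26 (26.9%) of genes lower by less, in 4 of 21 (19%) of genes that were higher and in 3 of 6 (50%) of genes not called. A match describes letters and neither a bound site nor a cause, and genes whose window lacks the letters may hold others.

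The following stretches of 30 bases lie before the annotated start and are written 5′ to 3′ on the strand of the gene, with the E2F letters in capitals. PCNA, E2F1, MCM3, POLA2 and CDC25A are shown as genes that were lower by 2-fold or more at P15, and CDT1, LIG1 and CDK1 as genes that carry the same letters and were higher. The positions on GRCh38.p14 are chr20:5126663-5126692 (minus strand) for PCNA, chr20:33686387-33686416 (minus) for E2F1, chr6:52284898-52284927 (minus) for MCM3, chr11:65261898-65261927 (plus) for POLA2, chr3:48188443-48188472 (minus) for CDC25A, chr16:88803743-88803772 (plus) for CDT1, chr19:48170440-48170469 (minus) for LIG1 and chr10:60778339-60778368 (plus) for CDK1.
PCNA: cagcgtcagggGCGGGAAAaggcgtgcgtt
E2F1: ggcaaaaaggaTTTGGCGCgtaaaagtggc
MCM3: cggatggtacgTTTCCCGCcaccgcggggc
POLA2: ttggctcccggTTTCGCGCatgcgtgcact
CDC25A: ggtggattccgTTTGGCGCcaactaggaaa
CDT1: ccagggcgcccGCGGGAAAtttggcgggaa
LIG1: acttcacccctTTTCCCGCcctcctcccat
CDK1: tttcctctttcTTTCGCGCtctagccaccc
PCNA, MCM3, CDT1 and LIG1 hold the same 8 letters on one strand or the other. PCNA and MCM3 fell by 2.07 and 1.29 at P15 while CDT1 and LIG1 rose by 0.61 and 0.53, so these letters alone did not separate the genes by direction.

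The CHR letters are shown in capitals in the same way for genes of the later cycle. MKI67 fell and KIF20A fell by less, while CCNB2, CDC25C and CDC20 rose at P15. These genes are examples and do not mirror the balance of direction. Counted by gene, CHR letters were found in 1 gene lower by 2-fold or more, 10 lower by less, 4 higher and 1 not called. The positions are chr10:128126453-128126482 (minus strand) for MKI67, chr5:138179059-138179088 (plus) for KIF20A, chr15:59105105-59105134 (plus) for CCNB2, chr5:138331817-138331846 (minus) for CDC25C and chr1:43358904-43358933 (plus) for CDC20.
MKI67: ttagcgccagaaTTTGAAtcttcgttttcg
KIF20A: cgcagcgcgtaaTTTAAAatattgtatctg
CCNB2: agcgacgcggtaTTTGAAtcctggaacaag
CDC25C: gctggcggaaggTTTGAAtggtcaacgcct
CDC20: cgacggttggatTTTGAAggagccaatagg
CHR letters stood in 1 of 11 windows of genes lower by 2-fold or more, that of MKI67, in 10 of 26 of genes lower by less, in 6 of 21 of genes that were higher and in 1 of 6 of genes not called, against 24% of all windows. The share was thus highest (38.5%) for genes lower by less than 2-fold.

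In early phase P3, the changes were small and mostly upward outside the replication machinery. Of the 59 genes, 26 were higher and 15 were lower than at P0, against 31.4% of all tested genes higher and 37.3% lower. A change of 2-fold or more was seen for 0 of them, against 1.95% of all tested genes higher and 2.51% lower. CDC25A rose most, with values of 5.71, 5.65, 5.79 and 5.70 against 4.86, 4.73, 4.86 and 4.86 at P0 (0.89 ± 0.06, adjusted p = 1.67e-12 in limma). The repressor E2F8 came next, at 5.36, 5.28, 5.31 and 5.33 against 4.61, 4.45, 4.61 and 4.51 (0.78 ± 0.08, adjusted p = 6.63e-09 in limma). For both genes the P3 libraries lay wholly above those of P0. CDK2 rose by 0.47, ORC6 by 0.41, AURKB by 0.34, CDC20 by 0.33, CDK1 by 0.30 and E2F1 by 0.20. MKI67 rose by 0.36, with libraries of 9.80 to 10.10 at P3 that just overlapped those of P0 (9.19 to 9.81), and by 0.23 without P0 replicate 2. PCNA fell by 0.52 (adjusted p = 7.88e-13 in limma), followed by MCM6 (0.40), BUB1B (0.38), CCNB2 (0.36) and GINS4 (0.34).

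By role, 12 of the 29 replication genes were lower (41.4%) and 8 were higher (27.6%) at P3. These shares lie near the 37.3% and 31.4% of all tested genes. Of the 13 mitotic genes, 8 were higher (61.5%) and 2 lower (15.4%). The highest of the 4 phase means was at P3 for 23 of the 59 genes (39%), against 20.1% of all tested genes, and at P15 for 15 genes (25.4%), against 43.5%. The lowest mean was at P15 for 30 genes (50.8%), against 38.5% of all tested genes, and at P7 for 21 genes (35.6%), against 18.6%.

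In intermediate phase P7, most of the set was lower than at P3. Of the 59 genes, 44 were lower, 2 were higher and 13 did not pass the test at P7 against P3, FEN1 and PCNA among the latter, against 28.0% of all tested genes lower and 30.3% higher. The median log2 fold change was -0.21, against 0.01 over all tested genes, so the shift was broad but shallow. The mitochondrial share of CPM was also highest at P7 (mean 1.77%, against 1.47% at P3), and its part in this shift was not tested. A rise of 2-fold or more was seen for 0 genes, against 0.996% of all tested genes, and E2F8 alone fell by that much, against 0.845%, with values of 4.24, 4.52, 4.00 and 4.27 at P7 (-1.06 ± 0.08, adjusted p = 6.09e-11 in limma). Without P7 replicate 3, its lowest library, the count of genes lower by 2-fold was 0.

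CDC25A and MKI67 each fell by 0.65 between P3 and P7, CENPE and CDC20 by 0.49 and 0.48, MYBL2 by 0.43, CDK2 by 0.42 and AURKA by 0.40. The 8 cyclins, kinases and CDC25 phosphatases were all lower, as were 11 of the 13 genes of the mitotic apparatus and 18 of the 29 of the replication machinery. LIG1 and E2F7 were the genes that were higher, by 0.18 and 0.12. That count was 1 when any 1 of 6 libraries was left out, P3 replicate 1, 2 or 3 or P7 replicate 1, 2 or 4. FEN1, PCNA, MCM3 and MCM4, among the genes that fell most by P15, differed between P7 and P3 by -0.02, -0.06, -0.07 and -0.09 and did not pass the test (adjusted p = 0.76, 0.0961, 0.20 and 0.083 in limma).

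Against parental phase P0, P7 had 41 genes lower and 5 higher, compared with 34.2% and 27.9% of all tested genes. A change of 2-fold or more was seen for 0 genes, against 1.52% of all tested genes lower and 1.86% higher. The largest falls were those of BUB1B (0.65), GINS4 (0.64), PCNA (0.58), CENPF (0.49) and CCNB2 (0.46). The genes that were higher were CDC25A, BIRC5, E2F7, ORC6 and CDK1, with BIRC5 at 7.06 to 7.14 against 6.83 to 6.95 at P0. Without P0 replicate 2 the count of higher genes was 3.

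**Figure D4:**
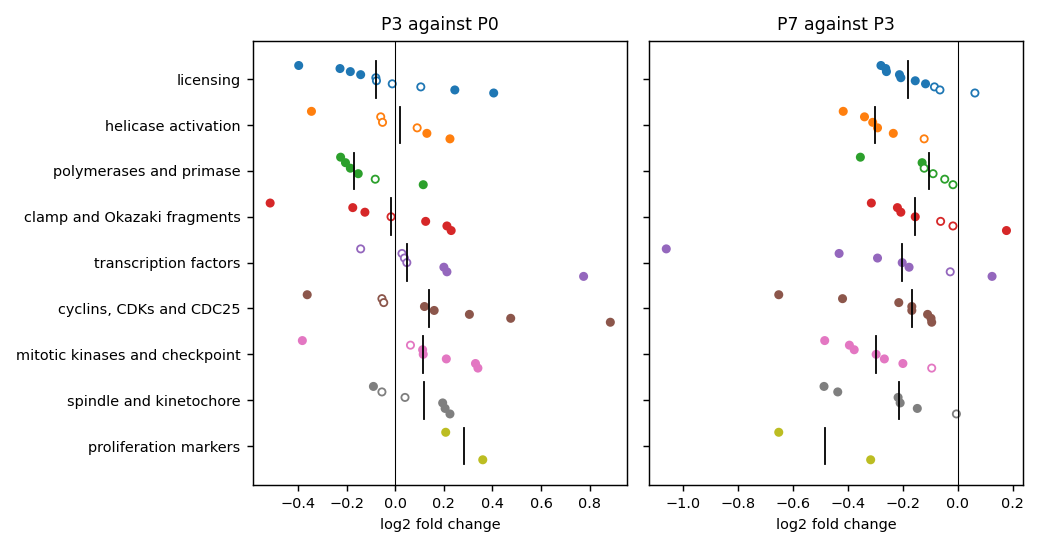
Log2 fold change (x axes) of each of the 59 genes, by role, in early phase P3 against parental phase P0 (left) and in intermediate phase P7 against P3 (right). Filled points passed an adjusted p-value of 0.05 in limma and vertical ticks mark the median of a role. Points lie on both sides of 0 on the left, with CDC25A at 0.89 and E2F8 at 0.78, and nearly all lie below 0 on the right, with E2F8 at -1.06.

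The step from P7 to P15 carried most of the replication falls. Of the 59 genes, 30 were lower and 24 were higher at P15 than at P7, against 40.1% and 46.3% of all tested genes, and 9 fell by 2-fold or more, against 12.1%. The log2 fold change was -2.56 for FEN1, -1.88 for CDC6, -1.57 for MCM4, -1.49 for PCNA, -1.39 for CDC25A and -1.27 for E2F1. GINS1, MCM3 and MCM2 completed the 9. For CDC6 the P7 libraries, at 6.96 to 7.09, still overlapped those of P0, and for E2F1 the values were 6.30 to 6.41 at P7 and 6.35 to 6.53 at P0. TTK rose by 0.98, POLD1 by 0.92, CDT1 by 0.84, CCNB2 by 0.80 and RFC2 by 0.76. No rise reached 2-fold, against 13.4% of all tested genes, and the count was 1 without P7 replicate 2 or without P15 replicate 2. The mitotic kinases and checkpoint genes held 6 that were higher and 1 that was lower (AURKA, by 0.48), so the P15 levels of BUB1B and PLK1, lower than at P0, were higher than at P7.

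Other genes of the same processes were read as fixed lists at P15 against P0, where 40.9% of all tested genes were lower and 45.3% higher. Of 34 other replication genes, 19 were lower (55.9%) and 11 higher (32.4%), with a median of -0.26, and ASF1B, a histone chaperone, fell most (1.47). ASF1B was the only 1 of the 34 to fall by 2-fold or more (2.94%), against 11.5% of all tested genes. The 2-fold falls of the replication machinery above were thus not shared by this list. Of 52 other mitosis genes, 25 were lower (48.1%) and 19 higher (36.5%), shares near those of all tested genes. A fall of 2-fold or more was seen for 4 of the 52 (7.69%), against 11.5% of all tested genes. It was seen for 0 of the 13 genes of the mitotic apparatus. NCAPD3 of condensin and SPC24 of the NDC80 complex had log2 fold changes of -1.49 and -1.43, and UBE2S, which extends ubiquitin chains at anaphase, rose by 1.54. At P7 against P3, 47 of these 52 were lower and 1 was higher, against 28.0% and 30.3% of all tested genes.

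Partners of E2F and regulators of G1 entry included larger changes. TFDP1, the DNA-binding partner of E2F proteins, had log2(CPM + 1) of 8.07 ± 0.01 (SD, n = 4) at P0, 8.69 ± 0.05 at P3, 8.92 ± 0.03 at P7 and 6.30 ± 0.03 at P15. It thus rose before it fell by 1.77 below P0, and 6 of the 13 genes of the RB, DREAM and E2F partner list were higher (46.2%) and 5 lower (38.5%) at P15, near the 45.3% and 40.9% of all tested genes. CCNE2, a cyclin that drives S phase entry, fell by 2.31 and CCND1, the G1 cyclin, by 1.12. Of the 13 tested genes of this G1 list, 7 were higher (53.8%) and 5 lower (38.5%), also close to those shares. The G1 kinase inhibitors CDKN2B and CDKN2D rose by 1.49 and 1.09. Of 12 genes of deoxynucleotide supply, 9 were lower (75%) and 2 higher (16.7%) at P15, and SAMHD1, which degrades deoxynucleotides, had a log2 fold change of -1.97.

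Some of the 59 genes lie among neighbours that moved the same way, and others do not. Within 1 Mb on either side, in GENCODE 44 coordinates on GRCh38, the median change of the tested neighbours at P15 against P0 was below 0 for 9 of the 12 genes lower by 2-fold or more and above 0 for 13 of the 18 genes that were higher. Over all tested genes of the same classes the shares were 63.1% and 68.7%, so these counts lie near the background. The neighbour median had the other sign for 3 of the 12 and 5 of the 18. Among these were MCM2 (0.25) and MCM3 (0.29), which fell, and CDK1 (-0.78) and CCNB2 (-0.39), which rose. For the 23 genes lower by less than 2-fold the neighbour median was below 0 for 12 and above 0 for 11. The genes described next lie among neighbours that mostly moved with them, where 40.9% of all tested genes were lower and 45.3% higher. FEN1 (chr11:61792911-61797238) had 44 tested neighbours, 35 of them lower, with a median of -0.76. POLA2 (chr11:65261913-65305959), on the same chromosome, had 64, of which 50 were lower (median -0.56). LIG1 (chr19:48115445-48170603) had 39 neighbours, 32 of them higher, with a median of 1.17, and POLD1 (chr19:50384204-50418018) had 36, of which 28 were higher (median 0.60). In a region of few genes, both tested neighbours of MKI67 were lower. AURKA (chr20:56369389-56392337) had 5 neighbours, all lower (median near -1), and E2F8 (chr11:19224063-19241620) had 11, of which 10 were lower (median -0.90). The change of the gene itself was larger in size than the neighbour median for 11 of the 12 genes lower by 2-fold or more, MKI67 being the exception. The part of the neighbourhood in these results was not tested.

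**Figure D5:**
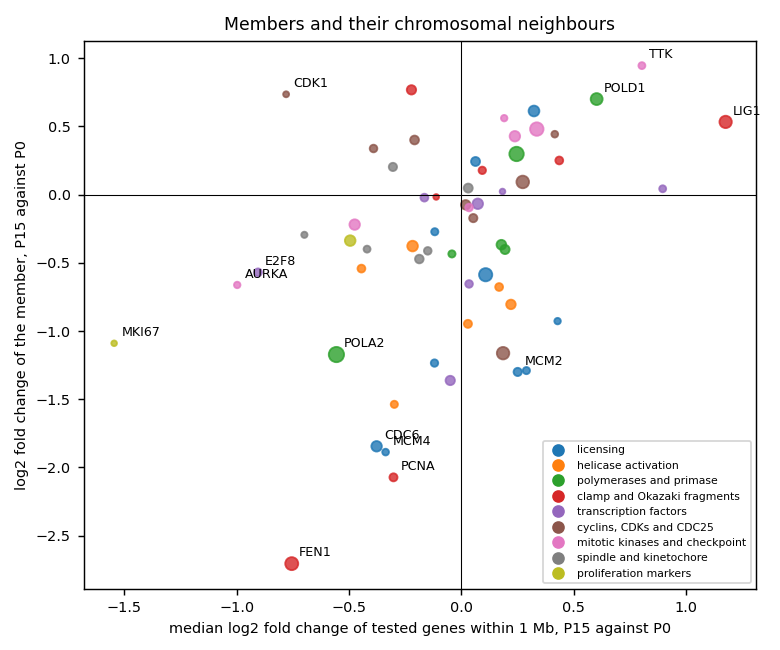
Log2 fold change of each of the 59 genes in P15 against P0 (y axis) against the median log2 fold change of the tested genes within 1 Mb (x axis), coloured by role, with larger points for more neighbours (2 to 64). FEN1 and POLA2 lie at lower left and LIG1 and POLD1 at upper right, while CDK1 was higher at a neighbour median of -0.78 and MCM2 was lower at 0.25.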

How the data were processed

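The authors aligned paired-end reads with STAR 2.6.1a to GRCh38, counted them on genes with featureCounts and deposited a table of 39007 symbols as log2(CPM + 1) with 2 decimals. Quantile normalization and median centring, named in the methods, are not carried by the deposited values. The strand setting and the handling of reads shared by genes are not stated in the sources used here. Phases were taken from the labels. All 16 libraries entered 1 limma model (version 3.58.1, R 4.3.3) with a term for each phase and a variance trend, and p-values were adjusted by Benjamini-Hochberg across 13249 genes, those averaging more than 1 CPM. A call needed an adjusted p-value below 0.05, and 2-fold calls also a log2 difference of 1 or more in size. The procedure was tested on simulated data. Fold changes are on the log2(CPM + 1) scale. Steps between low values gave the depth, and 1 count was worth at most 0.0296 CPM.

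The members and lists were chosen with earlier results of these data known. Values were given for 14 preset genes, for members changed by 2-fold in any of the 5 comparisons and for the largest called rise and fall of each role at P15, and other members were named to describe their role. Genes of the other lists (other replication, other mitosis, E2F partners, G1 regulators, deoxynucleotide supply and cell type markers) were counted by list, and some of their genes are not reported here by name. The labels name no pairing of libraries, and the deviations of same-numbered libraries had correlations above 0.1 in 1 of 24 pairs, so no block was used. Weak correlations cannot show that libraries were not processed together. Promoter letters were read from RefSeq windows on GRCh38.p14 and neighbours from GENCODE 44, which held 91.1% of the tested symbols once. Alternatives were other filters, pseudocounts, scalings, variance priors, limma's treat test, each pair of phases alone, a replicate block and each library left out. Tables and figures were made in Python 3.11.15 with numpy 2.4.6, pandas 2.3.3 and matplotlib 3.10.9.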

Additional observations from a re-analysis of the deposited data

Results flagged for a closer look

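In each phase, the gap between the highest or lowest library of a gene and its nearest neighbour was divided by the range of the 4 libraries and compared with Dixon's 95% critical value for 4 values. Of 236 such groups 20 had an isolated library, where chance at 1 in 20 gives 11.8. P0 replicate 2 held 5 of them, each lower than the other P0 libraries, with ratios of 0.95 for CDC6, 1.00 for POLE, 0.90 for FEN1, 1.00 for CDC25A and 0.86 for CENPE. P15 replicate 3 held 4, each higher, with 0.94 for MCM3, 0.93 for FOXM1, 0.91 for CENPF and 0.88 for MKI67. For MKI67 that library stood at a log2(CPM + 1) of 8.78 against 8.38 to 8.43 in the others.

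P7 replicate 3 was isolated for FEN1 (1.00, lower), LIG1 (1.00, higher) and E2F7 (0.89, lower), and P7 replicate 2 for MCM7 (1.00, lower) and KIF11 (0.93, higher). P0 replicate 1 was lower for GINS3 (0.89) and CDC20 (0.86) and P0 replicate 4 higher for POLD1 (0.83). In P3, replicate 3 was higher for PRIM1 (0.86) and replicate 2 lower for FEN1 (0.83), and P15 replicate 2 was lower for RFC5 (0.83). The range of the 4 libraries was 0.03 in 2 of the 20 groups, those of MCM7 and FEN1 at P7, on values rounded to 2 decimals.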

How the results depend on the processing

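Counts at P15 against P0 moved little when any 1 library was left out, with 17 to 18 genes higher, 34 to 35 lower and 12 lower by 2-fold. The test against a change of 0.5 on the log2 scale (limma's treat), which asks for a larger change by construction, left 4 higher and 19 lower there, 2 and 0 at P3 against P0, 0 and 1 at P7 against P0, 0 and 1 at P7 against P3, and 8 and 15 at P15 against P7. At P7 against P0 the higher genes numbered 3 to 5 with 1 library left out, 3 being without P0 replicate 2 and also, in an alternative chosen after seeing the data, without both P0 replicate 2 and P15 replicate 3. In that alternative P15 against P0 had 18 higher, 34 lower and 12 lower by 2-fold. At P7 against P3 the higher genes numbered 1 without the filter on low values and without the variance trend, and 1 to 2 with 1 library left out. The genes lower by 2-fold there numbered 0 with a pseudocount of 5 and 0 to 1 with 1 library left out. Rises of 2-fold at P15 against P7 numbered 1 with quantile normalization and 0 to 1 with 1 library left out.

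With the replicate number as a block, P15 against P0 had 18 higher and 35 lower and P7 against P0 had 4 higher, by the numbers of the descriptions or of the titles. No count moved by 1.5 times, and same-numbered libraries had correlations of -0.15 to 0.22.

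Signs were followed only for the preset genes, members changed by 2-fold and the largest called rise and fall of each role at P15. Among these, differences that changed sign were all near 0 and uncalled in both fits. A median shift turned CDT1 at P3 against P0 to 0.0025 and TPX2 at P7 against P0 to 0.0125. Quantile normalization turned CCNB1 at P7 against P0 to -0.0286, MYBL2 at P15 against P0 to 0.0341, and FEN1 and BIRC5 at P7 against P3 to 0.002 and 0.0197. Without both P0 replicate 2 and P15 replicate 3, CDT1 at P3 against P0 was 0.0108 and, at P7 against P0, CDC6 was -0.0092 and RFC2 -0.0317. With 1 library left out, CDT1 at P3 against P0 ranged from -0.07 to 0.0267. At P7 against P0, CDC6 ranged from -0.0092 to 0.06, RFC2 from -0.0317 to 0.0283, CCNB1 from -0.0025 to 0.0475 and TPX2 from -0.0325 to 0.0175. At P7 against P3, POLD1 ranged from -0.055 to 0.0117 and BIRC5 from -0.0175 to 0.0092. Beyond these, the causes were not tested. Depth set no limit here, since all 59 genes lay well above the worth of 1 count, while the number of libraries and the 2 decimals limit small differences.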
